A study of Mus musculus with 48 samples.

Results

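Joints that landed between the last Jκ segment and a point beyond the RS element were taken from every library by coordinate, as all prey junctions on chromosome 6 from 70674557 to 70720000 in build mm9. The window is 45444 bp long and holds most of the Jκ-Cκ intron, the Cκ exon (Igkc, 70676429 to 70676751), the stretch 3′ of it with the downstream κ enhancers and RS, and the 3′ end of Rpia (70715714 to 70742226, minus strand), a pentose phosphate pathway enzyme gene. It held 191732 of the 8250887 junctions of the series, or 2.32%, and 10750 distinct junctions once copies within a library were merged. The annotation used here has no entry for the enhancers or for RS, so RS was placed by its heptamer.

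Genomic DNA from vAbl pro-B lines, mouse pro-B cells transformed with the v-Abl kinase, was assayed by HTGTS-JoinT-seq, which primes from a fixed bait break and reads across its joint into whatever prey sequence was joined to it. The line was WT or Ku70-/-, each grown from 1 clone, and was kept cycling or arrested in G1 for 96 h. Arrest was with 3 µM STI-571, an Abl kinase inhibitor used to induce RAG in such lines. Arrested cells received DMSO, 5 µM L67 (an inhibitor of DNA ligases I and III) or 25 µM L82-G17 (a ligase I inhibitor). Each of these 8 conditions was read from the coding end (CE bait) and from the signal end (SE bait) of the RAG break at Jκ1, in 3 libraries, which makes 16 groups and 48 libraries. Every library was reduced by the authors to 500000 read pairs, so counts are given per 500000 read pairs. The labels do not say whether the 3 libraries of a group came from separate cultures, and the spread between them may be technical. Figure legends of the study state that its experiments had 3 biological repeats.

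RAG cuts between a coding segment and a recombination signal sequence (RSS), a heptamer and a nonamer parted by a 12 or 23 bp spacer, and leaves hairpin coding ends and blunt signal ends. Classical end joining, which needs Ku70 and Ku80, normally seals both; without Ku the ends are open to resection and alternative end joining. Downstream of Jκ, RAG also uses a lone heptamer in the Jκ-Cκ intron and RS, an RSS about 25.0 kb beyond Cκ. Joining RS to the intronic heptamer or to a Vκ segment deletes Cκ, which silences the allele in B cells that go on to λ rearrangement.

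The sequences that carry the pileups are shown first, each read from the mm9 reference on the strand that runs from the coding flank into the heptamer, with the heptamer in capitals. The first is the bait break itself, and the other 4 are the prey sites that held the most joints.
Jκ1 (chr6:70672517-70672575, minus strand): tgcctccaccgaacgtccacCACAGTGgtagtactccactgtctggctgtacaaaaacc
Intronic site (chr6:70674988-70675046, plus strand): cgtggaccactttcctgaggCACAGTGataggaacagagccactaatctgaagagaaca
21.5 kb site (chr6:70694043-70694101, minus strand): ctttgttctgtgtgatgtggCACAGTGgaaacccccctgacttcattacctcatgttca
26.3 kb site (chr6:70698808-70698866, minus strand): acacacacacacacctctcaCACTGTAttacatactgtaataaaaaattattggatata
RS (chr6:70701736-70701794, minus strand): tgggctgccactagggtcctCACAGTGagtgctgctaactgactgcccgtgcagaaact

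The intronic break lies between bases 70675007 and 70675008, 2.45 kb from the Jκ1 break, and the RS break between 70701774 and 70701775. All but 1 of these sequences carry the consensus CACAGTG, and the 26.3 kb site matches it at 5 of 7 bases. Compared with the nonamer ACAAAAACC at a spacer of 23 bp, 1 base either way allowed, Jκ1 matched at 9 of 9 bases, RS at 6 and the intronic site at 5. The 21.5 kb site matched at 3 and the 26.3 kb site at 2, or at 6 with a spacer of 12 bp. A match at 5 does not mark out the intronic site. CACAGTG copies 34.2 and 36.3 kb from Jκ1, with no joint within 10 bp, also matched at 5. The window holds 15 copies of CACAGTG on both strands, and 27.5% of 3216 windows of the same length on chromosome 6 held at least as many. Of these, 9 had no joint within 10 bp and 4 had 30 or more. The 4 were the intronic site (107200 joints), RS (18251), the 21.5 kb site (4033) and one 29.7 kb from Jκ1 with 55 joints, all from WT.

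Joints were concentrated at few places. Within 200 bp of the intronic break lay 71.3% of all joints in the window, and within 200 bp of the 4 prey sites 89.0%. The Jκ-Cκ intron held 146897 joints, the Igkc exon 2284, the stretch from Igkc to Rpia 42398 and the Rpia part 153. Igkc itself was almost free of joints in WT, with 45 in all 24 WT libraries against 2239 in the 24 Ku70-/- libraries, and Rpia with 4 against 149. The Rpia joints were copies of only 9 distinct junctions, and each group that held any had them in a single library.

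**Figure D1:**
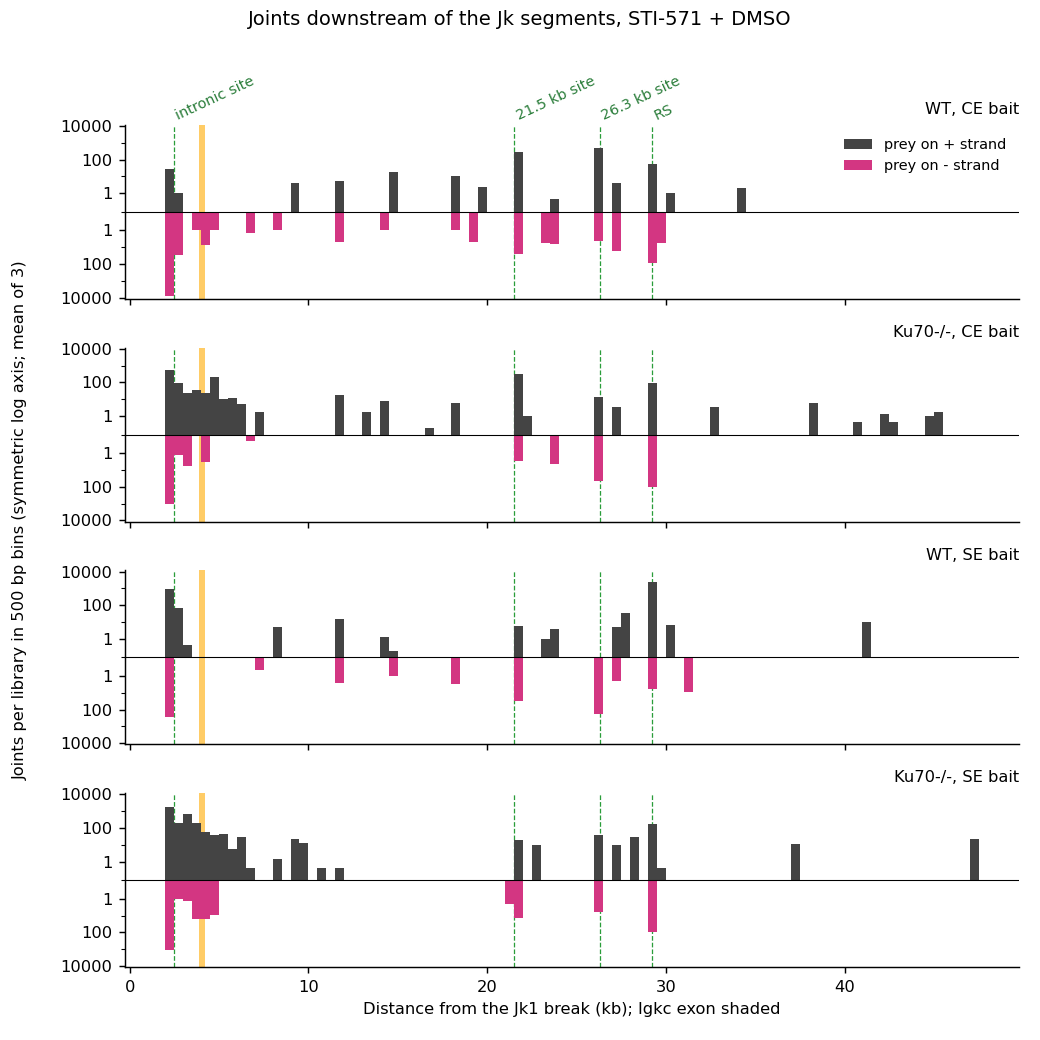
Mean joints per library in 500 bp bins (symmetric log axis, mean of 3 libraries; prey on the plus strand above 0 and on the minus strand below) against distance from the Jκ1 break in kb, for cells in STI-571 + DMSO. WT joints stand at the dashed sites, while Ku70-/- joints also fill the intron and the kilobases around the shaded Igkc exon, mostly on the plus strand. The Ku70-/- means include the first library of each bait, low in complexity as described below. In these, single junctions gave 1844 SE joints at 3.04 kb, and 637 and 872 CE joints at 5.00 and 21.5 kb.

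Some libraries differ from the others in complexity. The first Ku70-/- STI-571 + DMSO library of each bait, which the study's own library lists leave out, held 30 distinct junctions (CE bait) and 38 (SE bait), against 317 to 472 in the other 4 Ku70-/- DMSO libraries. In the CE library, 1 junction made up 872 of 2279 joints and another 637. In the SE library 2 junctions made up 1844 and 1372 of 4798 joints. None of these junctions occurred with the same breakpoints and overlap in another library. Values are given below for each library, and these are the first of each Ku70-/- DMSO group. Total junctions ranged from 8294 in a Ku70-/- cycling SE library to 385847 in a WT arrested CE library. A count of 0 allows up to 3 joints in a library, and reads carry no molecular identifiers, so this limit covers counting error only.

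The first comparison asks how arrest, which induces RAG, changed joining into this window. Cycling cells already held joints at the RAG sites, as given below. From the CE bait, WT cycling cells gave 995, 1567 and 987 joints and WT arrested cells 9498, 8960 and 8678. Arrested WT cells thus held 7.82-fold more on the log2 scale (difference 2.97). Ku70-/- cells gave 471, 439 and 389 joints when cycling and 2279, 2864 and 2786 when arrested, 6.08-fold more. The groups did not overlap in either line, and the exact two-sided permutation p of 0.1 is the smallest that 3 against 3 libraries allow.

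With the SE bait the difference with arrest was smaller. WT gave 2232, 3179 and 2240 joints when cycling and 3748, 3646 and 4199 when arrested, 1.53-fold more. Ku70-/- gave 3433, 1781 and 1719 when cycling and 4798, 4356 and 4518 when arrested, 2.08-fold more. Again the groups did not overlap (exact permutation p = 0.1 in both lines). Total junctions grew far more with arrest than this window did, so as a percent of all junctions the direction is the opposite: 10.6% ± 1.83 (SD, n = 3) in WT cycling cells against 1.13% ± 0.0975 in arrested ones from the SE bait, and 20.8% ± 4.65 against 2.46% ± 0.223 in Ku70-/-. From the CE bait the shares were 4.21% ± 1.06 against 2.41% ± 0.0591 in WT and 3.21% ± 0.365 against 1.81% ± 0.0848 in Ku70-/-.

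The second comparison sets the 2 lines side by side. From the CE bait Ku70-/- libraries held fewer joints than WT in every treatment, at 0.374 of WT when cycling, 0.291 in DMSO, 0.346 in L67 and 0.221 in L82-G17, with no overlap in any of the 4. Over the 4 treatments together the Ku70-/- level fell to 0.302 of WT (exact permutation within treatments, p = 1.25e-05, the smallest possible). With each distinct junction counted once the log2 difference was -0.36 (exact p = 0.245), and the one in L67 turned to 0.28. With the window begun 1 kb further, past the intronic site, it was -0.27 (exact p = 0.193), and the one in cycling cells turned to 0.61. As a percent of all junctions it was -0.71 over the treatments (exact p = 3.75e-05), and the cycling groups overlapped (-0.36). The same test on the SE bait gave 1.04 of WT (exact p = 0.535), the treatments ranging from 0.871 in cycling cells to 1.18 in DMSO. Taken as a percent of all junctions Ku70-/- was higher, by 0.80 on the log2 scale over the treatments (exact p = 1.25e-05) and by 0.96 in cycling cells. In DMSO all 3 Ku70-/- SE libraries (4356 to 4798) exceeded all 3 of WT (3646 to 4199), but the log2 difference of 0.24 turned to -0.78 with the window begun 1 kb further. Counting only joints within 200 bp of the 4 prey sites, an alternative chosen after seeing the data, turned the SE difference to -0.50 on the log2 scale over the treatments (exact p = 3.75e-05) and to -0.24 in DMSO. In distinct junctions the order was different, as WT SE libraries held 20 to 162 and Ku70-/- SE libraries 147 to 498 apart from the 1 of 38.

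**Figure D2:**
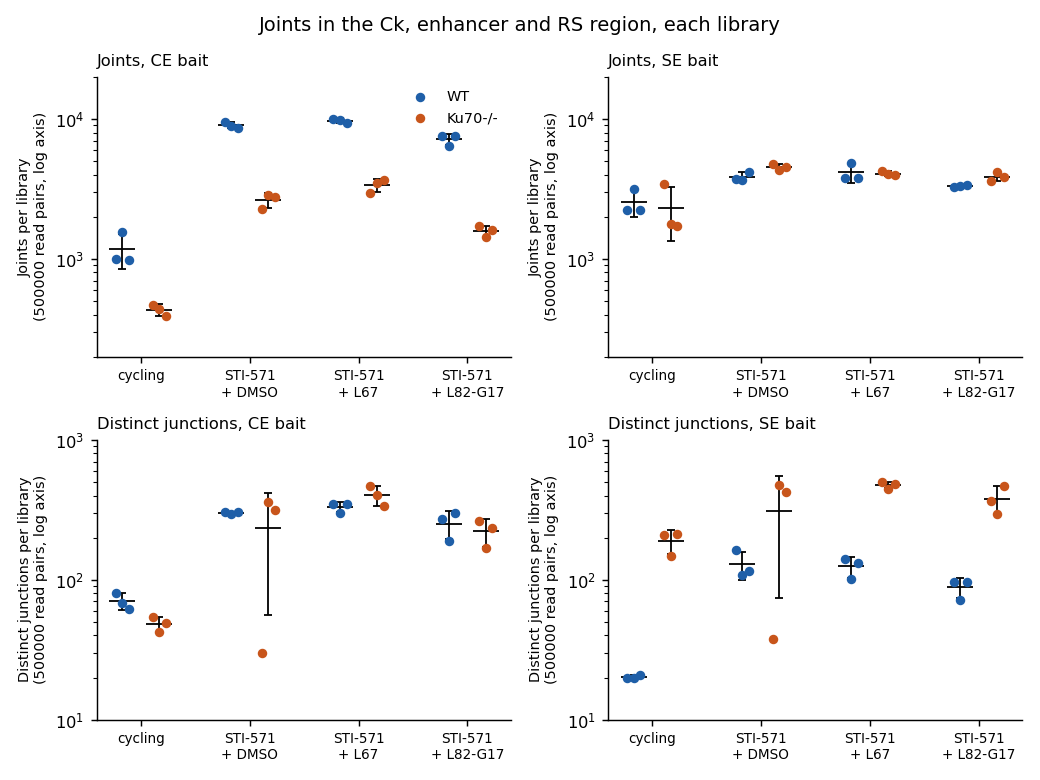
Joints (top) and distinct junctions (bottom) per library of 500000 read pairs on log axes, by treatment, for the CE bait (left) and SE bait (right). Points are libraries and black marks the mean ± SD of 3. WT stands above Ku70-/- in joints from the CE bait only, and Ku70-/- above WT in distinct junctions from the SE bait, with 1 low Ku70-/- DMSO library per bait.

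Of the 20 comparisons of joint counts (arrest, inhibitor and genotype), 16 had no overlap between the groups. None can pass 0.05 after adjustment, the smallest Benjamini-Hochberg adjusted value over the 20 exact permutation tests being 0.125. The effect of arrest in Ku70-/- minus that in WT was -0.36 on the log2 scale from the CE bait and 0.44 from the SE bait. The permutation shuffles labels within each line and so addresses no effect in either, not equal effects, and these differences between lines are given without a test. The SE value turned to -2.50 with each distinct junction counted once and to -3.55 with the window begun 1 kb further. For the inhibitors the difference between lines lay between -0.40 (L82-G17, CE bait) and 0.25 (L67, CE bait). With each distinct junction counted once it was 0.80 for L82-G17 from the CE bait, and 1.30 for L67 and 1.42 for L82-G17 from the SE bait. As a percent of all junctions that of L82-G17 from the CE bait was -1.19, the WT libraries standing above DMSO (0.59) and the Ku70-/- ones below it (-0.60), and that of L67 from the SE bait was -0.42.

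The intronic site was the largest single site over all libraries, though not in every group: RS held more joints in WT DMSO and WT L67 SE libraries, and most joints of Ku70-/- cycling CE libraries lay outside the 4 prey sites. Its coding end was joined to the Jκ1 coding end from the CE bait, a joint on the minus strand that lies in the excised circle. WT cycling libraries held 857, 1344 and 809 such joints and WT DMSO libraries 8142, 7980 and 7721. Ku70-/- cycling libraries held 30, 11 and 66, and Ku70-/- DMSO libraries 37, 1475 and 1515. All WT libraries lay above all Ku70-/- libraries of the same treatment, and the lowest Ku70-/- DMSO value is the low-complexity library. The mean in Ku70-/- cycling cells was 0.0355 of that in WT, and in DMSO 0.127 of it, or 0.188 without the low-complexity library. As a percent of all junctions, a scale added for single sites after seeing the data, WT cycling libraries held more, at 2.52% to 4.43% against 2.09% to 2.16% in DMSO, a log2 difference of -0.72 with arrest where counts gave 3.02.

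The signal end of the same break followed another course. With the SE bait the Jκ1 signal end joined the intronic signal end on the plus strand, which leaves a signal joint in the chromosome and removes the Jκ segments between. WT cycling libraries held 2040, 3038 and 2145 of these joints and WT DMSO libraries 858, 883 and 923, so that cycling cells had more, with no overlap (exact permutation p = 0.1). Ku70-/- libraries held 1753, 733 and 669 when cycling and 911, 1988 and 2010 in DMSO. These overlap through the low-complexity library (911), without which the DMSO libraries lay above the cycling ones and the log2 difference was 1.07 in place of 0.69 (exact permutation p = 0.2 for both). Distinct signal junctions of WT numbered 12, 13 and 14 in cycling and 21, 15 and 10 in DMSO libraries, which overlap, with a log2 difference of 0.17. Most WT signal joints have 1 exact structure, so separate joints of that structure cannot be told from PCR copies without molecular identifiers. As a percent of all junctions the intronic signal joints were fewer with arrest in both lines, at 8.41% to 12.1% in cycling and 0.243% to 0.272% in DMSO libraries of WT, and at 6.15% to 12.8% and 0.516% to 1.06% in Ku70-/-.

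**Figure D3:**
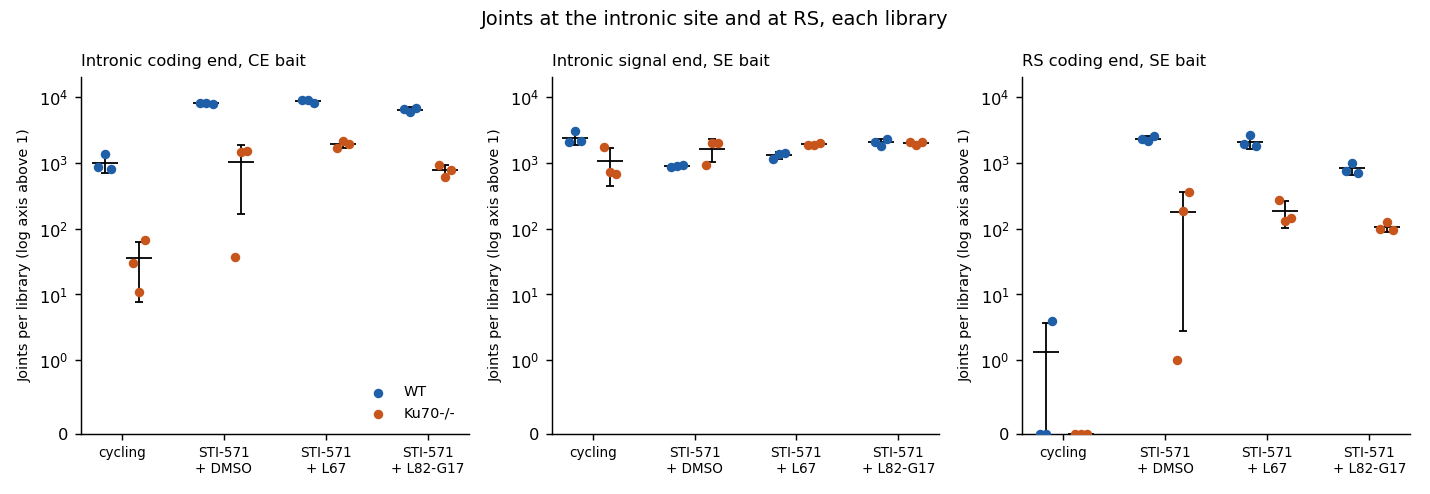
Joints per library (log axis above 1) at the intronic coding end (CE bait), the intronic signal end (SE bait) and the RS coding end (SE bait), by treatment. Points are libraries and black marks the mean ± SD of 3. The counts of WT coding ends stand 8.13-fold higher in DMSO than in cycling cells on the log2 scale, while WT signal ends stand at 858 to 923 in DMSO against 2040 to 3038 in cycling cells, and RS joints are near 0 in cycling cells.

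The joints differed in how far the ends had been cut back. Of joints within 100 bp of the intronic break, WT libraries had 98.4% to 100% within 10 bp of it from the CE bait and 98.5% to 100% from the SE bait. In Ku70-/- the range was 0% to 32.7% from the CE bait and 39.5% to 57.2% from the SE bait. Joints that read through the intact site, starting over 10 bases beyond the break, count here as not within 10 bp. Within 200 bp these numbered 129, 83 and 48 in Ku70-/- cycling CE libraries and 0 to 238 in Ku70-/- SE libraries. Of the 1493 such SE joints over all libraries, 1102 were 1 recurrent junction at 70674826. It lies over 100 bp from the break and so outside these shares. The Ku70-/- shares therefore do not measure end loss alone. There was no overlap between the lines in any treatment with either bait (exact permutation p = 0.1 each). In DMSO the difference was -78.3 percentage points from the CE bait and -51.6 from the SE bait. The median loss from the intronic coding end was 2 or 3 bases in each WT library and 12 to 28 bases in each Ku70-/- library.

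Over 50 bases were lost from the intronic coding end in at most 0.111% of such joints in a WT library. In Ku70-/- the share was 0%, 2.31% and 6.86% in DMSO, 4.01%, 1.91% and 9.22% in L67 and 15.1%, 14.7% and 15.0% in L82-G17. The L82-G17 libraries lay above those of both other arrested groups, a difference given here as a description with no test of its own.

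**Figure D4:**
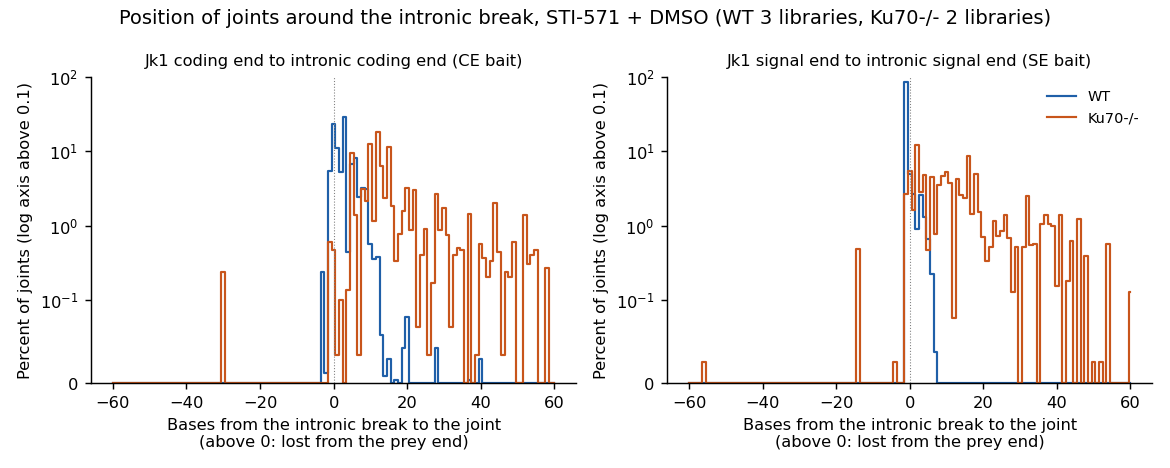
Percent of joints (log axis above 0.1) by the number of bases between the intronic break and the joint, up to 60 bases, for coding ends (CE bait, left) and signal ends (SE bait, right) in STI-571 + DMSO. Lines pool 3 WT libraries and the 2 Ku70-/- libraries of normal complexity. Of WT coding joints 98.9% lie within 10 bases of the break, and Ku70-/- joints spread beyond 50 bases.

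The joints below show this in sequence, each put together from the reference bases on the bait side and on the prey side, with the bases that both sides share in capitals. They are the most frequent WT coding joint, the most frequent WT signal joint and the most frequent Ku70-/- signal joint in DMSO, the last taken from the 2 Ku70-/- libraries of normal complexity.
WT, Jκ1 coding end to intronic coding end: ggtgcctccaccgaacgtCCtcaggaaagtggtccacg
WT, Jκ1 signal end to intronic signal end: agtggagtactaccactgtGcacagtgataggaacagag
Ku70-/-, Jκ1 signal end to intronic signal end: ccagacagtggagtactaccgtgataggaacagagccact

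The WT signal joint ran from the Jκ1 heptamer into the intronic heptamer with no base lost. It made up 2259 of the 2579 intronic signal joints of the 3 WT DMSO libraries that overlap or abut without insertion, 87.6%. Head-to-head fusions with neither end trimmed and nothing inserted made up 96.7% to 98.7% of intronic signal joints in WT cycling libraries and 73.3% to 94.5% in WT DMSO libraries. In Ku70-/- they were 0% to 4.37% of such joints in any library. The most frequent Ku70-/- structure, which ran from base 70672549 to 70675012, accounted for 86 of 3898 joints without insertion, or 2.21%, in those 2 libraries. The low-complexity library, left out here, held 911 intronic signal joints in 11 distinct junctions. The commonest WT coding joint, with 2 shared bases, made up 20.0% of the coding joints without insertion.

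The bait end was trimmed along with the prey end. The share of joints in the window with over 5 bases lost from the Jκ1 end was 0.255% to 4.82% in WT CE libraries and up to 91.1% in Ku70-/- CE libraries, all of which lay above every WT one. In SE libraries it was 0% to 13.8% in WT and 75.4% to 99.7% in Ku70-/-.

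Ends were also joined to the other kind of end, given here for the intronic break and below for RS. At the intronic break, a Jκ1 coding end joined to the intronic signal end, a hybrid joint, made up 0.200% to 0.519% of joints in arrested WT CE libraries, with or without inhibitor, and 17.4% to 92.7% in the matching Ku70-/- libraries, the highest being the low-complexity library (28.2% without it). In SE libraries, signal ends joined to the intronic coding end made up 18.1%, 26.0% and 26.3% in WT DMSO, 12.1%, 15.6% and 11.5% in WT L67, and 4.77%, 1.65% and 3.57% in WT L82-G17. The matching Ku70-/- values were 27.5% to 63.5% in DMSO, 27.0%, 19.8% and 23.2% in L67, and 14.2%, 10.6% and 13.7% in L82-G17. The 63.5% is from the low-complexity SE library, where 1 junction made up 1372 of 1587 such joints. Without that library the Ku70-/- DMSO values were 27.5% and 30.04%. In both lines all L82-G17 libraries were below all DMSO libraries. The 3 WT cycling SE libraries held 7223 joints to the intronic signal end and none to the coding end.

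RS was the second largest site. Its highest position, 70701777, lies 2 bases inside the coding flank, so the rule used for heptamer sites, which asks for CAC at the pileup itself with 1 base of shift, did not take it, and its heptamer was chosen after the values were seen. Most of its joints, 17070 of the 20269 within 200 bp, linked the Jκ1 signal end to the RS coding end on the plus strand, which deletes the DNA between with Cκ in it. Like the hybrid joints above, these pair a signal end with a coding end. WT DMSO SE libraries held 0, 0 and 19 joints to the RS signal end. To the RS coding end WT DMSO libraries held 2263, 2098 and 2564 joints and WT cycling libraries 0, 0 and 4. Ku70-/- DMSO libraries held 1, 183 and 354 joints to the RS coding end, and the cycling ones none. All WT arrested libraries lay above all Ku70-/- arrested libraries, the Ku70-/- mean being 0.0777 of the WT mean in DMSO (0.116 without the low-complexity library), 0.0871 in L67 and 0.130 in L82-G17 (exact permutation p = 0.1 each).

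At RS each inhibitor was set against DMSO only, since the doses differ. WT L67 libraries held 1891, 2623 and 1765 RS coding-end joints, which overlap DMSO. WT L82-G17 libraries held 748, 1001 and 709, a mean of 0.355 of DMSO with no overlap (exact permutation p = 0.1). The intronic signal joints of the same WT libraries stood the other way: 1123, 1352 and 1385 in L67 and 2035, 1785 and 2297 in L82-G17, 1.45-fold and 2.30-fold of the DMSO mean, without overlap. Total junctions were lower in WT L82-G17 SE libraries (130487 to 145581) than in DMSO (339201 to 352630). Relative to all junctions, the RS joints of WT overlapped, at 0.514%, 0.767% and 0.531% in L82-G17 and 0.642%, 0.619% and 0.756% in DMSO, with a log2 difference of -0.17 (exact permutation p = 0.5) in place of the -1.51 of the counts. The intronic signal joints stayed apart on that scale, at 1.37% to 1.72% in L82-G17 and 0.335% to 0.459% in L67 against 0.243% to 0.272% in DMSO.

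Unlike the intronic signal joints, the RS joints of WT often had trimmed Jκ1 signal ends. In WT DMSO libraries the bait alignment ended exactly at the Jκ1 break in 11.4% to 23.1% of RS joints but in 78.6% to 97.5% of intronic signal joints. Alignments that run past the break in an overlap are not counted, as in 1 RS structure with 751 joints in 9 WT libraries. Alignments that end at the break are counted even where their last bases are shared with the prey. Such bases could come from either side, so neither share is a bound for intact ends. The RS side was close to the break, 99.5% to 99.9% of joints lying within 10 bp of it. The most frequent WT structure, 12.9% of those without insertion, reads as follows, with the shared base in capitals.
WT, Jκ1 signal end to RS coding end: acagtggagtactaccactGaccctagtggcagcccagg

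From the CE bait RS was a minor partner in both lines. WT DMSO libraries held 79, 36 and 44 joints to the RS coding end and 92, 106 and 81 to its signal end. Ku70-/- DMSO libraries held 0, 198 and 79 to the coding end and 238, 40 and 49 to the signal end, so the lines overlapped. The 0 and the 238 are from the low-complexity library. With inhibitor the coding-end means were higher in Ku70-/-, at 123 against 56 in L67 and 96.3 against 56.3 in L82-G17. Both were without overlap (exact permutation p = 0.1 each), while the signal-end counts of those groups overlapped. Joints of the Jκ1 signal end to the RS signal end numbered 0, 0 and 19 in WT DMSO and 219, 30 and 22 in Ku70-/- DMSO, with no overlap.

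The 21.5 kb and 26.3 kb sites lie between Cκ and RS with heptamers that face the other way from the intronic one. From the CE bait their coding ends appeared on the plus strand, which is an inversion. WT libraries held 46, 35 and 84 joints at the 21.5 kb coding end when cycling and 424, 219 and 193 in DMSO. At the 26.3 kb coding end they held 35, 165 and 69 when cycling and 536, 403 and 496 in DMSO. Both sets are without overlap. In the same cycling WT CE libraries RS had 6, 0 and 0 coding-end joints.

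In Ku70-/- DMSO the 21.5 kb coding end had 885, 63 and 17 joints, where 872 of the 885 were 1 junction of the low-complexity library. The 26.3 kb coding end had 0, 32 and 7. The 26.3 kb signal end of SE libraries had 137, 134 and 271 joints in WT DMSO and 0, 3 and 16 in Ku70-/- DMSO, again apart. In WT DMSO, 93.5% of those 542 signal joints were exact fusions of the 2 signal ends. At the 26.3 kb coding end of WT DMSO cells 50.7% of joints carried an insertion and 0.627% over 1 bp of microhomology, whereas at the 21.5 kb coding end 84.4% of joints carried such microhomology and 3.59% an insertion. Coding joints of WT, as aligned, thus differed in structure from site to site. The coding flank of the 26.3 kb site holds an AC repeat. Many recurrent joints with insertions began in or beside it, at 70698853, 70698855 and 70698857. Whether alignment within the repeat adds to the insertion share was not tested.

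The rule also took smaller pileups at 2.85 kb (70675406, heptamer CACAAAA), 18.3 kb (70690808), 14.5 kb (70687062) and 27.3 kb (70699895) from Jκ1, with 582, 129, 91 and 81 joints at the highest position, mainly from WT. The others that it took, at 5.57 kb (70678127) and 4.14 kb (70676693, inside Igkc), had no WT joint at the highest position and belong with the recurrent junctions described next.

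Away from the 4 prey sites, WT libraries held 23 to 164 joints there from the CE bait and 11 to 259 from the SE bait, or 0.346% to 6.91% of their joints. Ku70-/- libraries held 254 to 647 from the CE bait and 690 to 2067 from the SE bait. Both highest values are from the low-complexity libraries, where 1 junction made up 637 of the 647 and 1844 of the 2067. Without these libraries the highest were 471 and 1728. In Ku70-/- cycling cells the joints outside the 4 sites made up 62.0% to 71.5% of CE joints and 39.6% to 52.1% of SE joints. They lay on the plus strand in 80.1% to 100% of cases, from both baits, which means deletions from the signal end and inversions from the coding end. From both baits most of them fell within 10 kb of the Jκ1 break, 85.4% of 4355 CE joints and 91.0% of 14113 SE joints, and 638 and 1268 lay beyond. The 637 and 1844 copies are among those within 10 kb. The 1221 bp of intron 3′ of the intronic site, the part of the intron known to hold the intronic κ enhancer, held more SE joints in Ku70-/- than in WT in every treatment, over 3 libraries each. The sums were 18 in WT and 1345 in Ku70-/- when cycling, 199 and 2874 in DMSO, 278 and 1328 in L67, and 102 and 1550 in L82-G17. Of the 2874, 1844 were 1 junction of the low-complexity library. From the CE bait the DMSO sums were 92 and 243.

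Many of these were the same junction again and again. Outside the 4 sites, 25 junctions from the SE bait and 10 from the CE bait, identical in both breakpoints and in overlap, occurred in 6 to 11 Ku70-/- libraries of that bait and in no WT library. All were on the plus strand, and all but 1 were also present in cycling libraries. They made up 5151 joints from the SE bait and 1119 from the CE bait. Such recurrence was also seen within 200 bp of the intronic break, in junctions left out of these counts. There the SE junction from base 70672515 to 70674826 had 1102 joints in 11 Ku70-/- libraries and none in WT. Another, from 70672537 to 70675021, had 307 in 11 Ku70-/- libraries and none in WT. In Ku70-/- cycling cells the recurrent junctions outside the 4 sites accounted for 20.3%, 12.4% and 23.6% of SE joints in the window and 26.1%, 42.8% and 30.1% of CE joints. In the Ku70-/- DMSO libraries they were 0.709%, 9.21% and 6.93% from the SE bait and 0.307%, 1.61% and 2.05% from the CE bait. The 0.709% and 0.307% are from the low-complexity libraries. The Ku70-/- L67 shares were 10.97%, 11.2% and 13.9% (SE bait) and 2.79%, 3.69% and 2.83% (CE bait). Those in Ku70-/- L82-G17 were 4.91%, 20.4% and 15.2% (SE bait) and 2.21%, 11.9% and 3.49% (CE bait). Both inhibitor groups thus overlapped cycling cells from the SE bait, while all arrested CE libraries lay below all cycling ones.

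Some lay far from Igkc, such as the SE joints at 70695158, 22.6 kb from Jκ1 (245 joints in 11 libraries), and at 70710032, 37.5 kb from it (257 in 9). The largest of each bait are shown because their identity from library to library is the observation. The CE junction joined Jκ1 base 70672588 to 70678127 and was found 527 times in 11 libraries. The SE junction joined base 70672513 to 70676133 and was found 580 times in 10 libraries. Each has 1 shared base, in capitals.
Ku70-/-, recurrent CE junction: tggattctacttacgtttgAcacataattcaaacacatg
Ku70-/-, recurrent SE junction: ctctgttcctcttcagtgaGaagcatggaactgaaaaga

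Besides these, 1 junction of each bait outside the 4 sites was shared by 6 or more libraries. The SE joint at 70675406, from Jκ1 base 70672555, was found 531 times, in all 12 WT SE libraries and in 1 of Ku70-/-. The CE joint at 70675404 was found 59 times, in 7 WT libraries. After that at RS, the largest pileups without CAC nearby were at 70674826, within 200 bp of the intronic break, and at 70676133, 70675741 and 70678311. All were from Ku70-/- SE libraries, with 1103, 587, 510 and 400 joints. At most 14 distinct junctions lay at each, merged within libraries but not between them. A single structure, found in 10 or 11 libraries, made up 1102, 580, 509 and 397 of these joints. Not all smaller pileups were from Ku70-/- SE libraries: that at 70684491 was from the CE bait, with 47 of its 100 joints from WT.

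The strand of the prey summed these patterns up. From the CE bait 7.05% to 15.6% of joints in WT libraries lay on the plus strand, against 31.2% to 96.1% in Ku70-/- libraries, a mean difference of 45.9 percentage points over the 4 treatments (exact permutation within treatments, p = 1.25e-05). For the SE bait the plus share was 84.6% to 97.4% in WT and 62.4% to 97.7% in Ku70-/-, a mean difference of -4.40 points (exact permutation p = 0.0177), made up of -13.5 points in DMSO (-8.01 without the low-complexity library) and -4.90 in L67, where the groups were apart, and of 1.73 in cycling cells and -0.94 in L82-G17, where they overlapped. With the window begun 1 kb further, past the intronic site, the DMSO difference from the CE bait turned to -2.08 points. In WT CE libraries 97.2% to 99.9% of joints were within 200 bp of a heptamer site taken by the rule. Those sites need only CAC at the break and were picked as pileups of these same libraries. A high share of joints near them is therefore partly set by that choice. In WT DMSO SE libraries the share was 37.8% ± 1.79, since RS is not among those sites, against 80.6% ± 9.34 in Ku70-/-; with RS added the Ku70-/- share was 11.1 points below WT (an alternative chosen after seeing the data).

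Joint structure was read from the overlap or gap between the 2 aligned parts, up to 20 bp. In DMSO from the CE bait, direct joints made up 18.2% ± 0.474 (SD, n = 3) in WT and 48.1% ± 5.88 in Ku70-/-, and insertions 15.5% ± 0.450 and 4.25% ± 3.04, both without overlap. Microhomology over 1 bp was in 38.1% ± 1.82 of WT joints and in 21.7% ± 7.16 of Ku70-/- joints, also apart. The cycling groups stood otherwise. Direct joints made up 21.2% ± 5.05 in WT and 12.7% ± 13.3 in Ku70-/- there, which overlap, against differences of 29.8 (DMSO), 25.1 (L67) and 23.8 (L82-G17) points the other way in arrested cells. Microhomology was in 36.2% ± 3.50 of WT and 51.5% ± 10.6 of Ku70-/- cycling joints, 15.3 points higher and apart, whereas it was lower and apart in Ku70-/- in each arrested group, by -16.4 (DMSO), -12.1 (L67) and -13.1 (L82-G17) points. The values over all 4 treatments, 17.5 points for direct joints (exact permutation p = 0.00135) and -6.60 for microhomology (exact p = 0.0784), therefore average differences of opposite sign. In DMSO the microhomology difference turned to 5.01 points with each distinct junction counted once and to 3.42 with the window begun 1 kb further. Insertions were lower in Ku70-/- in all 4 treatments and fell by 8.50 points over them (exact p = 3.75e-05), although the cycling groups overlapped.

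From the SE bait the DMSO groups held 28.3% ± 2.83 direct joints in WT and 43.1% ± 3.28 in Ku70-/-, apart, and 18.2% ± 8.37 with microhomology over 1 bp in WT and 38.6% ± 16.0 in Ku70-/-, apart. Without the low-complexity library the microhomology difference was 11.5 points (exact permutation p = 0.2) in place of 20.5. Over the 4 treatments direct joints were 18.3 points and microhomology 27.2 points more frequent in Ku70-/- (exact permutation p = 1.25e-05 for each). In DMSO the first turned to -13.5 points with the window begun 1 kb further, and the second to -9.34 points when an overlap of 1 bp was counted as microhomology. Insertions differed by 2.05 points over the treatments (exact p = 0.245), with 10.3 points in cycling cells, where the groups were apart, and -5.50 in DMSO, where they overlapped (-8.84 to -3.02 with 1 library left out). These WT shares depend on the site, since the single shared base of the exact intronic signal joint counts neither as direct nor as microhomology over 1 bp: in WT cycling SE libraries 89.8% to 94.3% of all joints were 1 structure.

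**Figure D5:**
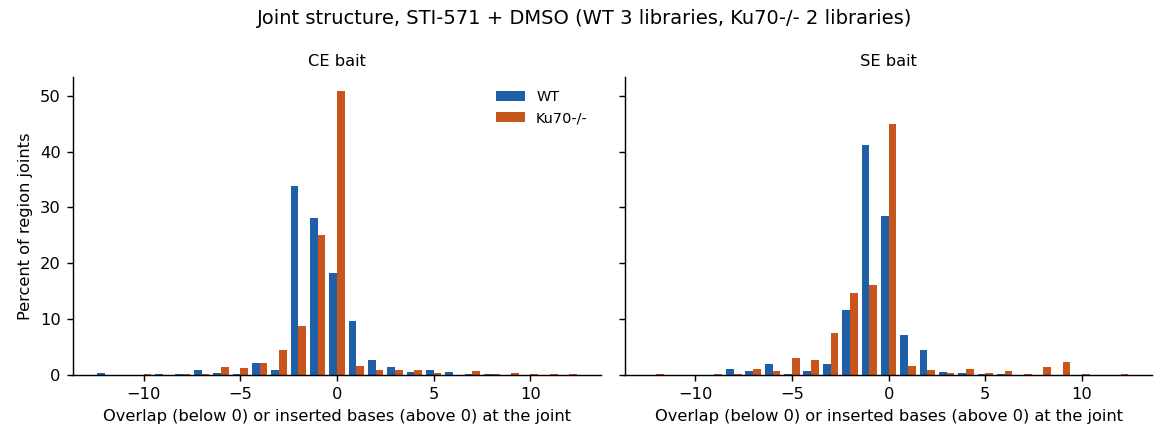
Percent of joints in the window by overlapping bases (below 0) or inserted bases (above 0), for the CE bait (left) and SE bait (right) in STI-571 + DMSO, pooled over 3 WT libraries and the 2 Ku70-/- libraries of normal complexity. Ku70-/- stands highest at 0 with both baits, and WT at overlaps of 2 bases (CE bait) and 1 base (SE bait).

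The last comparison asks what the ligase inhibitors did to joining into the window over both lines. With L67 the CE counts were 10038, 9912 and 9303 in WT and 2976, 3499 and 3669 in Ku70-/-, which over both lines rose to 1.18-fold of DMSO (exact permutation within lines, p = 0.01, adjusted p = 0.015 over 6 tests), but turned to -0.14 on the log2 scale with the window begun 1 kb further. From the SE bait they were 3794, 4880 and 3773 in WT and 4247, 4038 and 3949 in Ku70-/-, 0.978 of DMSO (exact p = 0.71). With L82-G17 the CE counts were 7533, 6398 and 7624 in WT and 1717, 1435 and 1605 in Ku70-/-, and fell to 0.690 of DMSO (exact p = 0.005, adjusted 0.01). From the SE bait they were 3278, 3326 and 3355 in WT and 3585, 4166 and 3870 in Ku70-/-, and fell to 0.855 of DMSO (exact p = 0.005, adjusted 0.01). On linear counts both L82-G17 differences kept their direction, at -1459 joints from the CE bait and -614 from the SE bait (exact p = 0.005 each). With each distinct junction counted once the log2 difference over both lines was 0.12 from the CE bait and 0.19 from the SE bait, and as a percent of all junctions it was -0.0037 and 0.76. In WT the percent was higher with L82-G17 than with DMSO, at 3.64% ± 0.239 against 2.41% ± 0.0591 in CE libraries and 2.44% ± 0.162 against 1.13% ± 0.0975 in SE libraries. In Ku70-/- CE libraries it was lower, at 1.10% to 1.30% against 1.71% to 1.86%.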

How the data were processed

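HTGTS-JoinT-seq libraries from vAbl pro-B lines were examined as the junction lists that the authors deposited, 1 per library. Per the labels, reads were aligned to mm9 with Bowtie2 and each library was normalized to 500000 read pairs; the deposited lists hold alignment coordinates and strands per junction, with repeated junctions kept, and no other values (unit: other). The reference chromosome 6 of NCBIM37 has the mm9 coordinates. Groups came from the labels. The region and the lists were chosen with earlier results of these data known.

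Distinct junctions share prey position, strand, bait end and overlap in a library. Pileups named in the text had 30 or more joints at a position in 6 or more libraries, with none higher within 50 bp; heptamer sites also had CAC at the break, 1 base of shift allowed, and the 10 largest were eligible, with the 5 largest other pileups. Counts were compared as log2(count + 1) by exact two-sided permutation over libraries, within treatments or lines where stated, with Benjamini-Hochberg adjustment. No model was fitted across features. Shares needed 20 joints per library. Test functions were tested on simulated data. Python 3.11.15, numpy 2.4.6, pandas 2.3.3, SciPy 1.17.1 and matplotlib 3.10.9 were used. Alternatives are given in the closing section. Library depth sets the limits in the text.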

Additional observations from a re-analysis of the deposited data

Results flagged for a closer look

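The effect of the bait ran in opposite directions in the arrested cells of the lines. In WT the SE bait gave fewer joints in the window than the CE bait and in Ku70-/- more, so that the SE minus CE difference was higher in Ku70-/- by 2.02 on the log2 scale in DMSO, by 1.52 in L67 and by 2.40 in L82-G17. Every library followed the direction of its line, with no overlap between the baits, and the difference between the lines itself was not tested. The WT direction rests on the intronic site: with the window begun 1 kb further, which leaves that site out, the SE minus CE difference of arrested WT was 1.35 in place of -1.23, and that of Ku70-/- 0.82 in place of 0.79. In cycling cells the difference was 1.22, with the SE bait higher in both lines.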

How the results depend on the processing

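No paired analysis was possible because the labels give no replicate numbers. Of the values recomputed, 760 kept direction and side of the threshold and 62 reversed, many of them small or untestable differences; values below are log2 differences unless given in points, and the cause was not tested where the construction does not show it.

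Counting each distinct junction once gave, for the CE bait, 0.52 for L82-G17 in Ku70-/-, 0.28 for Ku70-/- against WT in L67, -0.36 for Ku70-/- against WT over the treatments (exact permutation p = 0.245), 0.12 for L82-G17 over both lines, 0.80 for its difference between lines, and 5.01 points for microhomology in Ku70-/- against WT. For the SE bait it gave -0.0366 for L67 in WT, 1.26 for L67 and 0.90 for L82-G17 in Ku70-/-, 3.14 (cycling), 1.94 (L67) and 1.94 (over the treatments) for Ku70-/- against WT, 0.61 for L67 and 0.19 for L82-G17 over both lines, and -2.50 for arrest, 1.30 for L67 and 1.42 for L82-G17 as differences between lines. At the intronic signal end it gave 0.17 (WT) and -0.21 (Ku70-/-) for arrest and 2.81 for cycling Ku70-/- against WT.

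As a percent of all junctions, arrest gave -0.77 (WT) and -0.82 (Ku70-/-) from the CE bait and -3.22 and -3.05 from the SE bait. L82-G17 gave 0.59 (WT, CE), 1.12 (WT, SE), 0.40 (Ku70-/-, SE), -0.0037 (both lines, CE) and 0.76 (both lines, SE). Ku70-/- against WT from the SE bait gave 0.96 (cycling), 0.71 (L67) and 0.80 (all treatments). Differences between lines were -0.0399 (L67, CE), -1.19 (L82-G17, CE) and -0.42 (L67, SE). On linear counts the L82-G17 difference between lines from the CE bait was 803 joints.

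With the window begun 1 kb further, which leaves out the intronic site and so gives no value for it, the CE bait gave -0.40 (L67, Ku70-/-), 0.61 (Ku70-/- against WT, cycling), -0.27 (over the treatments), -0.14 (L67, both lines) and -0.52 (L67, between lines). The SE bait gave -0.0412 (L67, WT), 2.77 (Ku70-/- against WT, cycling), -0.78 (DMSO), and -3.55 (arrest) and 1.01 (L82-G17) between lines; SE against CE in WT was 1.35. In DMSO, Ku70-/- against WT gave -2.08 points for the plus strand (CE), -13.5 for direct joints (SE) and 3.42 for microhomology (CE).

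Microhomology of at least 1 bp gave -9.34 points from the SE bait. Among alternatives chosen after seeing the data, adding RS to the break sites gave -11.1 points, and site joints as a percent of all junctions gave -0.72 for arrest at the WT intronic coding end and -3.42 at the Ku70-/- intronic signal end. Without the recurrent Ku70-/- junctions the arrest difference between lines (CE) was 0.20 and Ku70-/- against WT (SE) -0.13. With only the 4 sites these were 0.92 and -0.50, and from the SE bait DMSO gave -0.24, L82-G17 -0.26 and L67 over both lines 0.0326.

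Leaving out single libraries moved Ku70-/- against WT from the SE bait between -0.0196 and 0.105 over the treatments and between -0.0781 and 0.107 in L67, L67 in WT between -0.0278 and 0.158, and the differences between lines between -0.32 and -0.13 (L67) and between -0.0808 and 0.0350 (L82-G17).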
